A study of Homo sapiens with 6 samples.

Results

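The MRPL genes encode proteins of the large subunit of the mitochondrial ribosome. They were taken as the protein-coding rows whose symbol is MRPL followed by digits only, and 49 of the 60617 rows of the deposited count table met that rule. Their RNA was measured by sequencing in 6 libraries of NCI-H1299, which the labels describe as a human lung adenocarcinoma line. The labels give 3 libraries, titled Puro, the genotype WT, and 3 libraries, titled Sh1, a knockdown of FuHsi; they spell out neither title and name no gene symbol for FuHsi, so the target's own level was not analysed here. The first set is called control and the second knockdown. The series set out to learn what FuHsi does in the nucleolus, where cytosolic ribosomes are assembled. Whether libraries of a group are separate cultures is not stated, so p-values speak only of the spread between these libraries, which may be technical. Both sets were grown in the same medium. The knockdown libraries share the one title Sh1, so what is particular to that construct and what follows from less FuHsi cannot be told apart.

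The mitochondrial ribosome translates the few proteins encoded by mitochondrial DNA, which are core subunits of the respiratory chain and of ATP synthase. Its RNAs come from the mitochondrial genome, while every one of its proteins is encoded in the nucleus, made in the cytosol and imported. About the bacterial core, which the members with bacterial counterparts still form, sits a shell of proteins found only in mitochondria. The large subunit joins amino acids, carries the stalk that recruits translation factors, and holds the tunnel through which the new chain reaches the inner membrane.

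Levels are given in CPM, a gene's counts relative to its library's total after scaling by TMM factors (a trimmed mean of log ratios), and differences as log2 fold changes of knockdown over control. The libraries held 24231515 to 34306849 counts each, more in every control than in every knockdown library; with all thinned to the smallest, 34 MRPL genes were still called lower and 3 higher. Between libraries, log2 CPM correlated at 0.990 to 0.992 inside a group and at 0.963 to 0.969 across groups. Of 5 epithelial markers, KRT8 and KRT18 were detected (494 ± 6.43 CPM in control and 320.0 ± 7.43 CPM in knockdown for KRT8), and EPCAM, KRT19 and CDH1 were under 1 CPM. All 4 mesenchymal markers were detected. All 4 lung adenocarcinoma markers, NKX2-1, NAPSA, SFTPB and SFTPC, stayed under 1 CPM in every library, with SFTPC at 0, so the labelled cell type was not seen in its defining markers. Markers of other cell types were low: 4 leukocyte markers summed to 0.339 to 0.762 CPM in control and 1.42 to 1.64 CPM in knockdown libraries, each under 1 CPM, and 4 fibroblast markers to 1.63 to 2.74 and 2.84 to 4.43 CPM. Both sums were higher in knockdown, and their part in the results was not tested.

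Most MRPL genes were lower after FuHsi knockdown. Of the 49, 48 passed the filter on low counts, and of these 34 fell, 3 rose and 11 did not pass the test (edgeR's quasi-likelihood test, Benjamini-Hochberg adjusted p under 0.05 over 17223 genes). Over all genes tested, 30.9% fell and 30.7% rose (61.6% in either direction), against 70.8% and 6.25% of the MRPL genes. The median log2 fold change was -0.42 over the MRPL genes and 0.03 over all genes tested, and the MRPL values ran from -1.13 to 0.65. In RNA from bulk culture, fewer cells expressing a gene and less RNA per cell cannot be told apart.

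**Figure D1:**
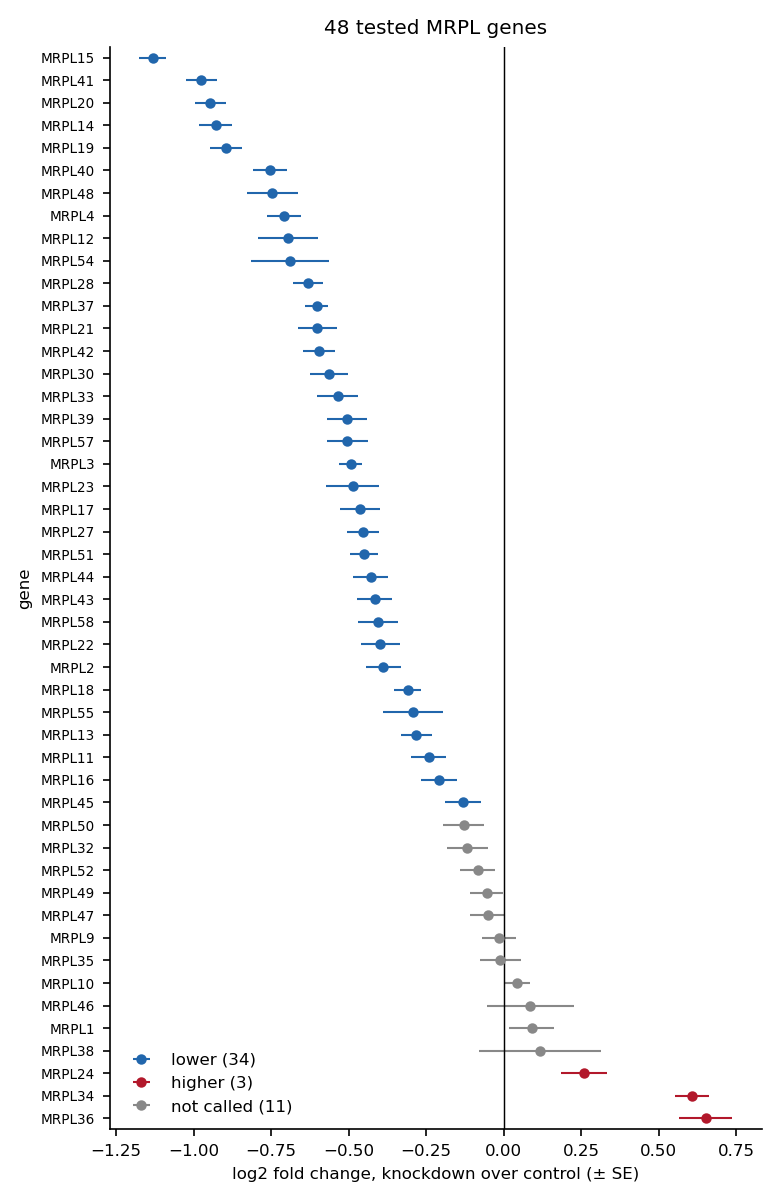
Log2 fold change of knockdown over control for each of the 48 tested MRPL genes, with bars of 1 SE from the edgeR fit (3 libraries per group) and colours for the 34 genes that fell, the 3 that rose and the 11 that did not pass the test. The values run from -1.13 for MRPL15 to 0.65 for MRPL36, with no break between the genes that fell and those that did not pass.

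The groups were cleanly apart for each gene that passed. In all 34 that fell, every knockdown library lay below every control library, and in all 3 that rose every knockdown library lay above; the 11 others overlapped. Over all genes tested, 32.3% had all knockdown libraries below and 33.0% all above. The replicate spread was small, with a median coefficient of variation of 3.80% in control and 4.61% in knockdown. Summed over the 49 genes, the level was 2942, 2929 and 3047 CPM in the control libraries and 2199, 2248 and 2198 CPM in the knockdown libraries. The sum in knockdown was thus 0.745 times that in control. As an unscaled share of all counts it averaged 0.282% ± 0.00437 over the control and 0.233% ± 0.00196 over the knockdown libraries (SD, n = 3).

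The size of the fall differed widely from gene to gene. Of the 34 genes, 18 had log2 fold changes of -0.5 or below and 16 lay between -0.5 and 0, and 1 fell by at least 2-fold, as did 3.12% of all genes tested. By edgeR's glmTreat, which asks for a change beyond 1.2-fold, 28 MRPL genes were lower and 2 higher, where 19.5% and 21.0% of all genes were; MRPL11, MRPL13, MRPL16, MRPL18, MRPL24, MRPL45 and MRPL55 did not pass it. With library size alone in place of TMM factors, MRPL11, MRPL16, MRPL45 and MRPL55 lost their calls and 30 genes were lower.

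MRPL15, the counterpart of bacterial L15 in the body of the subunit, had the largest fall (ENSG00000137547, GRCh38 chromosome 8, 54135210 to 54147901, plus strand). It was at 146, 144 and 154 CPM in the control libraries and 65.6, 69.2 and 67.9 CPM in the knockdown libraries. The groups stood far apart, and MRPL15 fell by 1.13 ± 0.04 on the log2 scale (SE, n = 3 per group, adjusted p = 2.58e-31). MRPL41, a mitochondria-specific protein (ENSG00000182154, GRCh38 chromosome 9, 137551199 to 137552555, plus strand), was at 95.03, 98.7 and 102 CPM in the control libraries and 48.7, 53.2 and 48.7 CPM in the knockdown libraries. The knockdown values of MRPL41 lay close together and far below the controls, and it fell by 0.98 ± 0.05 on the log2 scale (SE, n = 3 per group, adjusted p = 2.13e-25). MRPL20, whose bacterial counterpart L20 acts early in assembly of the large subunit (ENSG00000242485, GRCh38 chromosome 1, 1401908 to 1407313, minus strand), was at 91.6, 95.9 and 97.4 CPM in the control libraries and 51.2, 47.2 and 49.3 CPM in the knockdown libraries. It fell by 0.95 ± 0.05 on the log2 scale (SE, n = 3 per group, adjusted p = 7.89e-25).

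MRPL14 and MRPL19 are counterparts of bacterial proteins at the face that meets the small subunit. MRPL14 (ENSG00000180992, GRCh38 chromosome 6, 44113454 to 44127457, minus strand) was at 76.2, 79.9 and 83.8 CPM in the control libraries and 41.9, 42.9 and 41.1 CPM in the knockdown libraries. It fell by 0.93 ± 0.05 on the log2 scale (SE, n = 3 per group, adjusted p = 3.32e-23). MRPL19 (ENSG00000115364, GRCh38 chromosome 2, 75646783 to 75690851, plus strand) was at 85.9, 86.8 and 84.3 CPM in the control libraries and 48.5, 45.7 and 43.9 CPM in the knockdown libraries, and it fell by 0.90 ± 0.05 on the log2 scale (SE, n = 3 per group, adjusted p = 4.02e-23). In both genes the knockdown libraries lay within a narrow band well below the controls. MRPL3 (ENSG00000114686, GRCh38 chromosome 3, 131462212 to 131502983, minus strand), the counterpart of the protein that reaches towards the peptidyl transferase centre, had the highest CPM of these genes, at 209.9, 209.9 and 215 CPM in the control libraries and 147, 154 and 150.2 CPM in the knockdown libraries. Its fall was smaller, 0.49 ± 0.04 on the log2 scale, and it too left no overlap between the groups (it fell with an adjusted p of 3.33e-18).

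**Figure D2:**
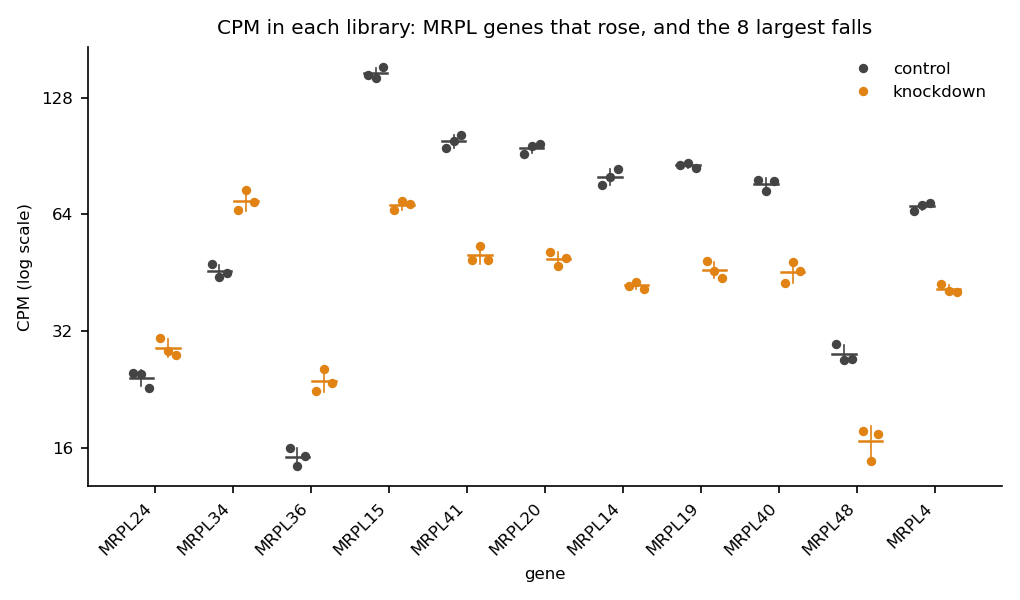
CPM on a log scale in each of the 3 control and 3 knockdown libraries for the 3 MRPL genes that rose (MRPL24, MRPL34 and MRPL36) and the 8 with the largest falls. Points are libraries, horizontal lines are means and vertical lines ± 1 SD; the control and knockdown points do not overlap for any of these genes.

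The members near the top of the subunit, in the central protuberance, mostly fell. Of 8 genes placed there, 6 fell and 0 rose, with a median of -0.36. MRPL40, a mitochondria-specific protein of this region (ENSG00000185608, GRCh38 chromosome 22, 19431902 to 19436075, plus strand), was at 78.6, 73.4 and 77.99 CPM in the control libraries and 42.6, 48.3 and 45.6 CPM in the knockdown libraries. It fell by 0.75 ± 0.05 on the log2 scale (SE, n = 3 per group, adjusted p = 5.54e-19). MRPL48, its neighbour in class and place (ENSG00000175581, GRCh38 chromosome 11, 73787316 to 73865133, plus strand), was at 29.6, 26.9 and 27.2 CPM in the control libraries and 17.7, 14.7 and 17.4 CPM in the knockdown libraries, and it fell by 0.75 ± 0.08 on the log2 scale (SE, n = 3 per group, adjusted p = 7.17e-12). Its lowest value, in knockdown replicate 2, widened the knockdown spread without bringing the groups into contact. MRPL58, a peptidyl-tRNA hydrolase built into the subunit (ENSG00000167862, GRCh38 chromosome 17, 75012670 to 75021261, plus strand), was at 38.9, 40.2 and 39.3 CPM in the control libraries and 28.5, 30.2 and 30.7 CPM in the knockdown libraries. Its log2 fold change was -0.40 ± 0.06 (SE), a smaller fall, with an adjusted p of 2.09e-07. MRPL18, MRPL27 and MRPL55, bacterial-type proteins of the same region, fell by 0.31, 0.45 and 0.29. MRPL38 and MRPL46 did not pass, at 0.12 ± 0.20 (SE) and 0.09 ± 0.14 (SE), and they were among the lowest members in CPM.

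At the tunnel exit and the side that faces the inner membrane, 7 of 10 genes fell and 1 rose, with a median of -0.41. MRPL4, whose counterpart lines the tunnel (ENSG00000105364, GRCh38 chromosome 19, 10251901 to 10260045, plus strand), was at 65.5, 67.6 and 68.6 CPM in the control libraries and 42.3, 40.7 and 40.3 CPM in the knockdown libraries. It fell by 0.71 ± 0.05 on the log2 scale (SE, n = 3 per group, adjusted p = 1.06e-17). MRPL22, MRPL23 and MRPL17, also of bacterial type, fell by 0.40, 0.49 and 0.47, and MRPL39, a mitochondria-specific member, by 0.51. MRPL44, a mitochondria-specific protein with a fold like that of RNase III (ENSG00000135900, GRCh38 chromosome 2, 223957404 to 223967714, plus strand), was at 53.9, 56.7 and 57.4 CPM in the control libraries and 40.00, 40.8 and 44.04 CPM in the knockdown libraries. It fell by 0.43 ± 0.06 on the log2 scale (SE, n = 3 per group, adjusted p = 2.01e-09).

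Others at the exit hardly moved. MRPL45, which holds the ribosome to the inner membrane (ENSG00000278845, GRCh38 chromosome 17, 38297023 to 38323218, plus strand), was at 46.1, 44.3 and 46.00 CPM in the control libraries and 40.6, 42.3 and 41.6 CPM in the knockdown libraries. The groups did not touch but lay close together, and the log2 fold change of -0.13 ± 0.06 (SE) passed narrowly, with an adjusted p of 0.0472. With library size alone in place of TMM it was 0.02 and not called, and the call was also lost with upper-quartile factors, with the replicate block (-0.13, adjusted p = 0.0572) and when any 1 library other than control replicate 2 or knockdown replicate 2 was left out (-0.14 to -0.12). MRPL47, the counterpart of L29 (ENSG00000136522, GRCh38 chromosome 3, 179588285 to 179604654, minus strand), was at 53.2, 50.6 and 54.6 CPM in the control libraries and 51.5, 47.7 and 53.5 CPM in the knockdown libraries. The groups overlapped, with -0.05 ± 0.06 on the log2 scale (SE, n = 3 per group, adjusted p = 0.434). MRPL50 did not pass either, at -0.13 ± 0.07 (SE). MRPL24, whose counterpart starts assembly of the bacterial subunit (ENSG00000143314, GRCh38 chromosome 1, 156737303 to 156741590, minus strand), was at 24.9, 24.9 and 22.8 CPM in the control libraries and 30.6, 28.4 and 27.8 CPM in the knockdown libraries. It rose by 0.26 ± 0.07 on the log2 scale (SE, n = 3 per group, adjusted p = 0.00193), with every knockdown library above the controls, but did not pass the test for a change beyond 1.2-fold.

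The stalk that recruits translation factors was uneven: of 5 genes at the stalk and its base, 4 were tested and 3 fell, with a median of -0.47. MRPL12, present in several copies at its tip (ENSG00000262814, GRCh38 chromosome 17, 81703357 to 81707526, plus strand), was at 18.1, 17.8 and 18.4 CPM in the control libraries and 10.99, 12.4 and 10.1 CPM in the knockdown libraries. It fell by 0.70 ± 0.10 on the log2 scale (SE, n = 3 per group, adjusted p = 7.39e-09). Of its exonic bases 68.2% are shared with other annotated genes, the largest part with a gene listed at 0 in all 6 libraries. MRPL10, which anchors MRPL12 to the subunit (ENSG00000159111, GRCh38 chromosome 17, 47823272 to 47831534, minus strand), was at 102, 97.2 and 103 CPM in the control libraries and 102, 104 and 106 CPM in the knockdown libraries. These overlapped, with 0.04 ± 0.04 on the log2 scale (SE, n = 3 per group, adjusted p = 0.4); scaling by upper-quartile factors or by library size alone gave a call, at 0.10 and 0.20. MRPL11, at the base of the stalk, and MRPL54 fell by 0.24 and 0.69. MRPL53 was listed at 0 in all 6 libraries, which allows at most 0.0874 to 0.124 CPM of the unscaled totals (3 counts per library, counting error only). It shares 45.2% of its exonic bases with CCDC142, and how the authors assigned reads of shared exons is not given in the sources used here. MRPL1, the protein of the mobile stalk on the other side of the subunit, where spent tRNA leaves (ENSG00000169288, GRCh38 chromosome 4, 77862520 to 77952790, plus strand), was at 29.1, 27.2 and 30.8 CPM in the control libraries and 29.8, 29.1 and 33.98 CPM in the knockdown libraries. It did not pass, with 0.09 ± 0.07 on the log2 scale (SE, n = 3 per group, adjusted p = 0.283), but did at 0.24 when scaled by library size alone.

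Over the body of the subunit, 18 of 25 genes fell and 2 rose, with a median of -0.49. Besides those above, MRPL2, MRPL13, MRPL16, MRPL21, MRPL28, MRPL30 and MRPL33, of bacterial type, fell by 0.39, 0.28, 0.21, 0.60, 0.63, 0.56 and 0.54. The mitochondria-specific MRPL37, MRPL42, MRPL43, MRPL51 and MRPL57 fell by 0.60, 0.60, 0.42, 0.45 and 0.50. MRPL32, MRPL49 and MRPL52 did not pass, at -0.12 ± 0.07 (SE), -0.06 ± 0.05 (SE) and -0.08 ± 0.06 (SE).

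The genes with the smallest differences were bacterial-type members of the body, apart from MRPL10. MRPL35 (ENSG00000132313, GRCh38 chromosome 2, 86199355 to 86213794, plus strand) was at 34.3, 33.1 and 36.6 CPM in the control libraries and 32.6, 34.7 and 35.8 CPM in the knockdown libraries, a difference of -0.01 ± 0.07 on the log2 scale (SE, n = 3 per group, adjusted p = 0.889). MRPL9 (ENSG00000143436, GRCh38 chromosome 1, 151759643 to 151763564, minus strand) was at 47.7, 49.96 and 49.4 CPM in the control libraries and 48.3, 47.7 and 49.5 CPM in the knockdown libraries, with -0.02 ± 0.06 on the log2 scale (SE, n = 3 per group, adjusted p = 0.83). The 6 libraries of each gene were interleaved. The signs of these near-zero values, and that of MRPL47, turned positive with upper-quartile factors and with library size alone; MRPL9 was called, at 0.14, with the latter.

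MRPL36 and MRPL34 went the other way from most of the subunit. MRPL36, a short protein and counterpart of bacterial L36 (ENSG00000171421, GRCh38 chromosome 5, 1798386 to 1801366, minus strand), was at 15.9, 14.3 and 15.2 CPM in the control libraries and 22.4, 25.5 and 23.6 CPM in the knockdown libraries. It rose by 0.65 ± 0.09 on the log2 scale (SE, n = 3 per group, adjusted p = 1.27e-09), 1.57 times its control level. MRPL34, another short bacterial-type protein (ENSG00000130312, GRCh38 chromosome 19, 17292609 to 17306843, plus strand), was at 47.7, 44.1 and 45.1 CPM in the control libraries and 65.6, 74.1 and 68.8 CPM in the knockdown libraries. It rose by 0.61 ± 0.05 on the log2 scale (SE, n = 3 per group, adjusted p = 6.38e-15), with all knockdown values well above the controls; 13.2% of its exonic bases are shared with other genes, chiefly ABHD8. Both kept their rise under every alternative listed in the closing section.

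By origin, 21 of 30 members with a bacterial counterpart fell and 3 rose, with a median of -0.39. Of the 18 tested members found only in mitochondria, 13 fell and 0 rose, with a median of -0.44. No test was made of one class against the other. Across the 48 genes the log2 fold change had a Spearman correlation of 0.05 with transcript length, -0.13 with GC content and -0.32 with the control level per length; these describe genes that share libraries and are given without a test.

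Levels between genes were compared per length of the principal GENCODE transcript, in CPM per kb. In control they ran from 1.61 for MRPL38 to 143 for MRPL18, with a median of 38.2 and quartiles of 19.4 and 61.0. The value of MRPL38 is uncertain, as 41.1% of its exonic bases are shared with other genes. MRPL18 stood at 143 ± 5.49 and MRPL37 at 135 ± 4.91 (mean ± SD, n = 3), followed by MRPL20 at 132 ± 4.15, MRPL15 at 129 ± 4.33 and MRPL3 at 124 ± 1.69. Neighbours among these 5 did not differ beyond the sum of their SDs, and over the whole order 19 of 47 neighbouring pairs did. In knockdown MRPL18 and MRPL37 kept ranks 1 and 2, and MRPL15 went from rank 4 to rank 9. The largest moves were those of MRPL36 (rank 35 to 21), MRPL34 (17 to 5), MRPL40 (15 to 26), MRPL4 (19 to 29), MRPL28 (16 to 24), MRPL41 (10 to 17) and MRPL9 (25 to 18). Over all 48 genes the levels in the groups had a Spearman correlation of 0.947. The value of MRPL42 is uncertain because its principal transcript is annotated at 15582 bases.

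**Figure D3:**
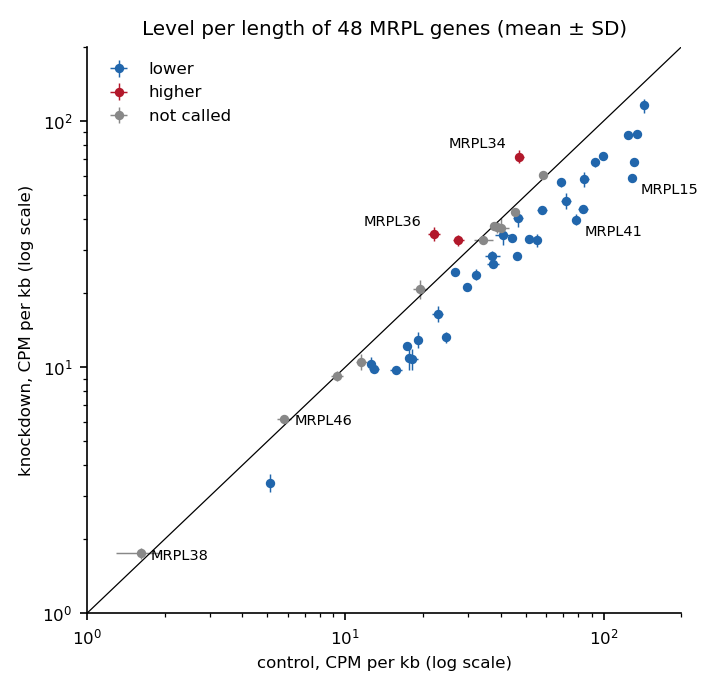
Mean level per length in CPM per kb, control on the horizontal and knockdown on the vertical axis, both log scales, for 48 MRPL genes, with bars of ± 1 SD (3 libraries per group) and a line of equal level. Most points lie under the line; MRPL24, MRPL34 and MRPL36, which rose, lie above it, and MRPL38 and MRPL46 lie at the low end on it.

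Of the 49 genes, 6 share over 25% of their exonic bases with other genes: MRPL12, MRPL53, MRPL38, MRPL9, MRPL43 and MRPL51. Without them the median was -0.43 and 31 of 43 tested genes fell. MRPL51 shares 31.3%, the largest part with NCAPD2, a condensin subunit that fell by 0.75. MRPL43 shares 36.9%, the largest part with SEMA4G, and reads from these shared exons cannot be told apart. Counts of MRPL pseudogenes were few: 35 rows held 98 counts over all 6 libraries, where the 49 genes held 457468.

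The share of genes called varied with their level in these data. In 5 equal classes of all tested genes by mean log2 CPM, 33 of the 48 MRPL genes lay in the class second from the top, where 45.8% of all genes fell and 32.3% rose, with a median of -0.08. There 24 of the 33 fell and 1 rose, with a median of -0.42. In the top class 5 of 6 fell, where 60.3% of all genes did, and the medians were -0.47 and -0.20. In the middle class 5 of 7 fell and 2 rose, where 998 of 3445 genes fell and 1381 rose, and the medians were -0.49 and 0.08. The 2 genes in the class below, MRPL38 and MRPL46, did not pass.

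**Figure D4:**
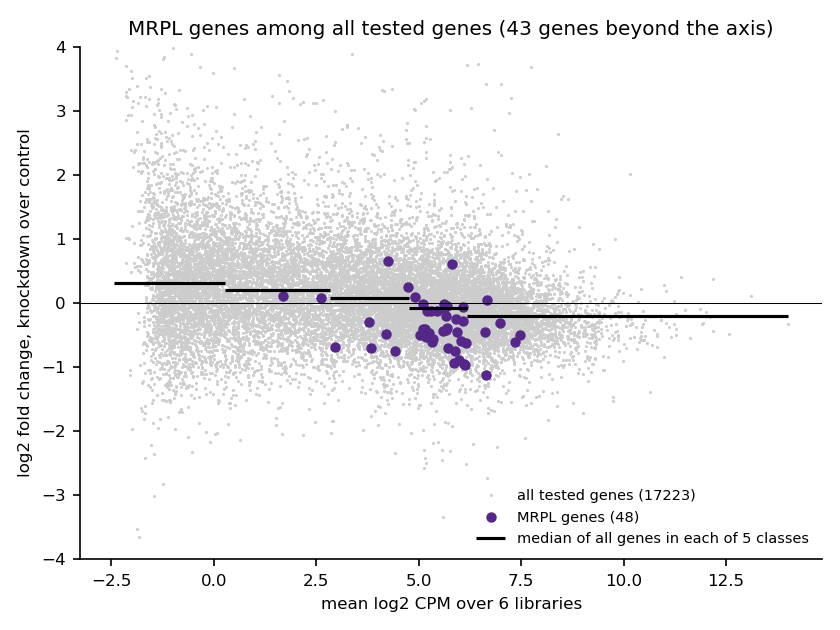
Log2 fold change of knockdown over control against mean log2 CPM over 6 libraries, for 17223 tested genes in grey and 48 MRPL genes in purple; black bars give the median of all genes in each of 5 equal classes of level. The bars step down from 0.31 to -0.20 with level, most MRPL points lie under the bar of their class, and 43 grey points lie beyond the axis.

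Of the other proteins of the large subunit that the name rule leaves out, GADD45GIP1 was at 151 ± 7.39 CPM in control and 120.2 ± 0.749 CPM in knockdown and fell by 0.33. MRPS18A fell by 0.19, and 1 of these 3 genes was called with upper-quartile factors, library size alone or thinned counts. MRPS30 did not pass, at -0.09 ± 0.05 (SE). Of the 26 genes named MRPS and a number, a set taken by name that also holds MRPS30, 21 fell and 1 rose, with a median of -0.33. Of 45 tested RPL genes, for the cytosolic large subunit, 43 fell and 0 rose, and their median was -0.32. Among all tested genes 30.9% fell and 30.7% rose. By glmTreat 11 MRPS genes were lower and 1 higher, and 25 RPL genes were lower and 0 higher, beside 28 and 2 MRPL genes. With that test 19.5% of all tested genes were lower and 21.0% higher. By their quartiles the MRPL genes were more spread than the cytosolic set, at -0.60 and -0.11 against -0.44 and -0.24. The full range was -1.13 to 0.65 for the MRPL genes and -1.60 to 0.23 for the RPL genes. These are descriptions that were not tested. With library size alone, which raised the median of all genes by 0.15, the medians of the MRPL, MRPS and RPL sets were -0.27, -0.17 and -0.17, with 30, 13 and 36 genes lower.

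The ribosomal RNA of the subunit was at a higher CPM in knockdown. MT-RNR2, the 16S ribosomal RNA encoded by mitochondrial DNA and named here after its values were seen, was at 2317, 2330.2 and 2434 CPM in the control libraries and 2994, 3148 and 3287 CPM in the knockdown libraries. All knockdown values were above the controls, and it rose by 0.41 ± 0.03 on the log2 scale (SE, n = 3 per group, adjusted p = 2.44e-18). With library size alone the rise was 0.57. Whether ribosomal RNA was depleted or polyadenylated RNA selected is not given in the sources used here. Neither the level nor the change of MT-RNR2 is therefore compared with those of the mRNAs.

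For the lists that follow, the shares over all tested genes were 30.9% lower and 30.7% higher, and 19.5% and 21.0% by glmTreat. Among factors that assemble the large subunit more genes fell than rose. Their 22 genes, all measured, had a median of -0.20, and 12 fell and 4 rose; with library size alone the median was -0.05, with 8 lower and 5 higher, and by glmTreat 7 were lower and 0 higher. MPV17L2, which takes part in ribosome assembly in mitochondria, was at 41.6 ± 0.661 CPM in control and 22.7 ± 1.22 CPM in knockdown and fell by 0.87. NDUFAB1, the mitochondrial acyl carrier protein, fell by 0.64. MALSU1, which binds MRPL14 on the unfinished subunit, fell by 0.49, beside the fall of MRPL14 above. The rises were small: GTPBP10, a GTPase, by 0.27, DDX28, a helicase, by 0.21, and NSUN4, an RNA methyltransferase, by 0.15. The count of rises was 2 with RLE factors, and 1 without the low-count filter, by DESeq2 or without any 1 of control replicates 1 and 2 and knockdown replicates 1 and 2.

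Translation factors were split. Among 16 genes 7 fell and 2 rose, and by glmTreat 6 were lower and 1 higher. The median of -0.05 turned to 0.01 with upper-quartile factors and 0.11 with library size alone, where 5 and 7 rose. MTFMT, which formylates the initiator methionine on its tRNA, went from 26.5 ± 0.692 to 7.78 ± 1.71 CPM and fell by 1.76. The elongation factors GFM1 and TUFM fell by 0.59 and 0.53. MTRF1 and MTRF1L, release factors, rose by 0.89 and 0.19; by DESeq2 and without control replicate 1 the list held 1 rise.

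Of 11 genes for mitochondrial transcription and DNA maintenance, 6 fell and 3 rose, with a median of -0.17. With library size alone that median was -0.02, with 4 lower and 3 higher, and by glmTreat 3 were lower and 0 higher. TFB2M and TFAM, which start transcription with the RNA polymerase POLRMT, fell by 0.77 and 0.56, and POLRMT fell by 0.33. TEFM, an elongation factor, MTERF1 and POLG2 rose by 0.33, 0.28 and 0.18, and 1 rise was called by DESeq2, without control replicate 2 or without knockdown replicate 2. Of 17 genes for mitochondrial RNA stability and processing, 8 fell and 4 rose, with a median of -0.10. That median turned to 0.05 with library size alone, and by glmTreat 6 genes were lower and 1 higher. SLIRP, an RNA-binding protein that keeps mitochondrial mRNAs stable together with LRPPRC, was at 76.04 ± 2.62 CPM in control and 30.2 ± 0.479 CPM in knockdown and fell by 1.33. LRPPRC fell by 0.53 and ELAC2, which trims tRNA ends, by 0.69. PRORP, PTCD2 and MTPAP rose by 0.44, 0.35 and 0.28.

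**Figure D5:**
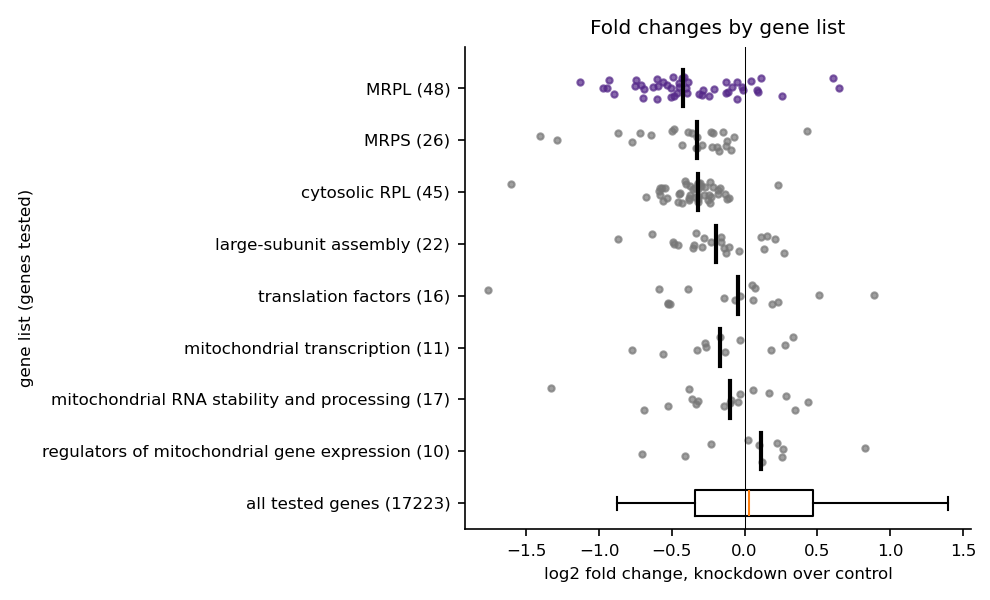
Log2 fold change of each tested gene by list, with black bars at the list medians, and a box for all 17223 tested genes (box at the quartiles, line at the median, whiskers at the 5th and 95th percentiles). The medians run from -0.42 for the MRPL genes to 0.11 for regulators of mitochondrial gene expression, beside 0.03 for all tested genes.

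Nuclear regulators of such genes did not move together. Of 10, 3 fell and 6 rose, with a median of 0.11, where 30.9% of all tested genes fell and 30.7% rose. By glmTreat 2 were lower and 1 higher, and by DESeq2 3 were lower and 4 higher. NRF1, a transcription factor of many genes for mitochondrial proteins, was at 24.8, 26.8 and 28.3 CPM in the control libraries and 20.1, 20.9 and 19.02 CPM in the knockdown libraries and fell by 0.41. PPARGC1B, a coactivator, and ESRRA, a nuclear receptor, fell by 0.70 and 0.23. PPARGC1A, a related coactivator, rose by 0.83, YY1 by 0.27 and GABPB1 by 0.26. GABPA, the DNA-binding partner of GABPB1 and a member of the ETS family, was at 0.03 ± 0.06 (SE) and did not pass.

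Promoter sequences of 42 of the 49 genes were found in RefSeq (GRCh38.p14), from 250 bases before to 50 after the start. Each was searched on both strands for 4 motifs: GCGCA and GCGC with any 1 base between them for NRF1, CCGGAAG for ETS factors such as GABPA, AAGATGGCG for YY1 and CACGTG, the E-box bound by MYC. The ETS letters were in 40.5% of MRPL promoters, in 18.7% of the 10822 promoters of tested protein-coding genes and in 10.7% of all 27305. The YY1 letters were in 19.0%, 3.83% and 1.85%, the NRF1 letters in 14.3%, 11.5% and 6.28%, and the E-box in 11.9%, 9.98% and 7.43%. Among 24 MRPS promoters the ETS letters were in 41.7%, the YY1 letters in 12.5%, the NRF1 letters in 8.33% and the E-box in 0. A match is a description of the letters and not a bound site.

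Not every match is shown here. The ETS letters were also in promoters of MRPL38, MRPL47 and MRPL52, which did not pass. The YY1 letters were also in those of MRPL22 and MRPL42, which fell. The windows below are examples from promoters of genes that fell (MRPL20, MRPL3, MRPL14, MRPL17), rose (MRPL36) or did not pass (MRPL52, MRPL46). Each is read 5′ to 3′ on the gene's strand, with the match in capitals, which is the motif or its reverse complement.
MRPL20, chr1:1407321-1407347, minus strand: gaccttcgccCCGGAAGtatcgcaggg
MRPL20, chr1:1407298-1407324, minus strand: aggggctgacCCGGAAGcgctcgtgac
MRPL3, chr3:131502987-131503013, minus strand: gtaaaacgcaCCGGAAGtgggtccggc
MRPL14, chr6:44127412-44127441, minus strand: tgggcctggcGCGCAGGCGCtaggaagagg
MRPL17, chr11:6683402-6683431, minus strand: aggctctgatGCGCATGCGCaaacacgttc
MRPL36, chr5:1799928-1799957, minus strand: tcgcactccaGCGCCTGCGCactcgctgct
MRPL36, chr5:1799855-1799883, minus strand: ccccccccgcCGCCATCTTccttcctggc
MRPL52, chr14:22829779-22829807, plus strand: acgatgacccAAGATGGCGgagccgtgat
MRPL52, chr14:22829813-22829841, plus strand: acccagattcAAGATGGCGacttcctgct
MRPL46, chr15:88467362-88467390, minus strand: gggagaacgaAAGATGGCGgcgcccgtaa

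The ETS letters stand in 2 places in 5 of the promoters, those of MRPL20, MRPL27, MRPL51, MRPL58 and MRPL53. The first 4 fell by 0.95, 0.45, 0.45 and 0.40, and MRPL53 was not tested. Of the 16 tested genes with the ETS letters, 13 fell and 0 rose, with a median of -0.47; of the 25 without, 16 fell and 3 rose, with a median of -0.31. Of the 8 genes with the YY1 letters, 2 fell and 1 rose, with a median of -0.10; of the 33 without, 27 fell and 2 rose, with a median of -0.47. Of the 6 with the NRF1 letters, 5 fell and 1 rose, with a median of -0.48. Of the 35 without, 24 fell and 2 rose, with a median of -0.42. Of the 5 with the E-box, 3 fell and 1 rose, with a median of -0.13. Of the 36 without, 26 fell and 2 rose, with a median of -0.45. For comparison, 70.8% of all tested MRPL genes fell and 6.25% rose, where 30.9% and 30.7% of all tested genes did. The groups by motif are small and overlap, and their differences were not tested.

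Several MRPL genes start back to back with another gene, with starts taken here as the outermost gene ends in GENCODE. In 14 pairs the nearest start on the opposite strand is that of a protein-coding gene within 300 bases. MRPL genes whose nearest such start belongs to a non-coding gene are left out. In 5 of the 14 pairs both genes passed the test, 3 in the same direction and 2 in opposite directions. Since 61.6% of all tested genes passed, nothing is read from that count. MRPL36 starts 34 bases from NDUFS6, a subunit of complex I. NDUFS6 went from 65.2 ± 4.17 to 40.6 ± 1.11 CPM and had a log2 fold change of -0.68 ± 0.06 (SE). The pair of MRPL36 and NDUFS6 thus moved in opposite directions. The RefSeq start used for the MRPL36 promoter differs from this GENCODE start. Its windows shown above (1799855 to 1799957) lie inside the GENCODE gene (1798386 to 1801366), away from the end that faces NDUFS6. MRPL30, which fell by 0.56, starts 21 bases from MITD1, at 0.79 ± 0.08. MRPL57, MRPL43 and MRPL18, which fell by 0.50, 0.42 and 0.31, face SKA3 at -0.84 ± 0.06, TWNK at -0.27 ± 0.05 and TCP1 at -0.42 ± 0.03. MRPL43 and TWNK overlap at their starts (gap of -148 bases). MRPL47, which did not pass, faces NDUFB5, another subunit of complex I, at -0.32 ± 0.05. The sources used here do not say whether counting used strand, so where such genes overlap their reads cannot be told apart.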

How the data were processed

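RNA-seq libraries of NCI-H1299 cells (3 control, 3 knockdown) came from total RNA extracted with RNAiso Plus and a TruSeq kit, per the labels' protocols. The authors deposited unnormalized whole-number counts per Ensembl gene. The submitters' processing notes list hg38, STAR 2.7.0d, Trim Galore 0.6.6, DESeq2 1.30.1 and featureCounts 2.0.1; settings, strand, annotation release and multi-mapping are not stated there. Symbols matched 60261 of 60617 rows; positions and lengths came from GENCODE on GRCh38 (58542 rows matched).

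Counts were filtered with filterByExpr (minimum count 10), scaled by TMM and tested in R 4.3.3 with edgeR 4.0.16 (robust quasi-likelihood, group only), Benjamini-Hochberg adjusted over 17223 genes. The SE is the log2 fold change over the root of F. The common biological coefficient of variation was 4.67%. Alternatives were DESeq2 1.42.0, RLE, upper-quartile and library-size scaling, no filter, glmTreat, a replicate block, thinned counts and leaving out each library. Chi-square per gene between libraries of a group was 2.80 to 4.68, above sampling noise, so no library was taken as a repeat deposit of another; whether they are separate cultures is not stated.

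In simulated data for this comparison (16856 genes in the run) the test called 75 of 96 genes that were given a change of 1 log2 unit. It called 61 of 99 given 0.5, and 8 of 16661 given none. Few genes were given a change there, drawn from all levels, whereas 61.6% of tested genes were called in the data. These rates therefore do not measure sensitivity or error for the MRPL genes. The members and lists were chosen with earlier results of these data known. Full values are given for every member that rose, the 8 largest falls, the 3 smallest differences, and MRPL1, MRPL3, MRPL12, MRPL36, MRPL44, MRPL45, MRPL47 and MRPL58; up to 3 rises and 3 falls are named per pathway list. GABPA, the MRPS and RPL counts and back-to-back partners stand outside that rule.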

Additional observations from a re-analysis of the deposited data

How the results depend on the processing

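The count of MRPL genes that fell ran from 28 (glmTreat) to 35 (without control replicate 2), and the median was below 0 in each setting run. Leaving out 1 library gave 33 to 35 lower, 3 higher and medians of -0.45 to -0.41. Library size alone gave 30 lower, 6 higher and a median of -0.27, and upper-quartile factors a median of -0.36. Of called members MRPL45 alone changed sign, at 0.023 with library size alone. With glmTreat, which asks for a larger change by construction, 3359 of all genes were lower, against 5317, and 28 genes of the pathway lists were called, against 57. Uncalled values turned positive for MRPL35 (0.048 with upper-quartile factors, 0.14 with library size alone, 0.014 thinned, and -0.051 to 0.022 leaving out 1 library), for MRPL9 (0.045 and 0.14 with those scalings) and for MRPL47 (0.0078 and 0.10). Of 294 values of named genes under alternatives, 273 kept direction and call. Thinning, chosen after seeing the data, gave 34 lower and 3 higher. With the replicate block 33 were lower and 3 higher, MRPL45 lost its call, and 2 assembly factors rose in place of 4. Residuals of equal-numbered libraries correlated at -0.000751, -0.00642 and -0.0235, so no shared effect of the replicate number was seen. These values cannot show whether equal-numbered libraries were prepared together. The cause of the other shifts was not tested. MRPL38, MRPL46 and MRPL53 had the lowest CPM of the members; MRPL38 and MRPL53 also share over 25% of their exonic bases with other genes.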
